A study of Mus musculus with 24 samples.

Results

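Skeletal stem cells sorted from microfractured mouse joints were compared after treatment labelled VEGFR1 and after PBS, with 1 array for each treatment. These are 2 of the 24 arrays of the series, chosen by their treatment labels. Both samples came from the distal femur, the knee end of the thigh bone, of C57BL/6J mice aged 9 to 25 weeks, and all joints of this comparison had been microfractured, a procedure that perforates the bone under joint cartilage. Sorting kept cells with integrin alpha V on their surface (ITGAV+) that lacked 6 others: CD105-, 6C3-, THY1-, TIE2-, TER119- and CD45-. The third array of the same experiment held stem cells from joints given BMP2, a bone morphogenetic protein, and shared the PBS array as its control. Doses, the time between injury and sorting and the number of animals behind each array are not stated, and 500 to 1000 sorted cells entered each preparation. The values are gene expression activity scores per probe set, a probe set being the group of array probes that reads 1 transcript. The score is bounded at -100 and 100, and the labels do not say what 0 stands for. The median over all probe sets was -24.15 with PBS and -23.46 with VEGFR1, so a score below 0 was usual.

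VEGF-A draws blood vessels into tissue by binding the receptors VEGFR1 (gene Flt1) and VEGFR2 (gene Kdr). VEGFR1 binds VEGF tightly but signals weakly, and its soluble form lacks the part that anchors it in the membrane and acts as a decoy. In the growth plate of long bones, vessels that enter hypertrophic cartilage accompany its replacement by bone, whereas healthy joint cartilage has no vessels. The comparison addresses whether trapping VEGF in the injured joint changes the gene expression of the stem cells there, in particular cartilage against bone genes. With 1 array per treatment there is no replicate, so no p-value, error or test can be given for any difference below. Every difference is VEGFR1 minus PBS in score points, and a gene is called higher or lower when the probe set that stands for it differed by at least 50 points. That probe set is the one with the highest mean score over both arrays.

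The arrays were alike across most genes. Of 20889 genes, 72.7% differed by less than 25 points, and the median difference was -0.29 points. The called genes numbered 2188 (10.5%), of which 1096 were higher (5.25%) and 1092 lower (5.23%). Across 45101 probe sets the scores with VEGFR1 and PBS correlated at r = 0.871, those with BMP2 and PBS at 0.858 and those with VEGFR1 and BMP2 at 0.859. These points are probe sets of the same arrays and not independent replicates. The 3 pairs of stem cell arrays thus differed by similar amounts, with 10.5%, 11.4% and 11.6% of genes at least 50 points apart.

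**Figure D1:**
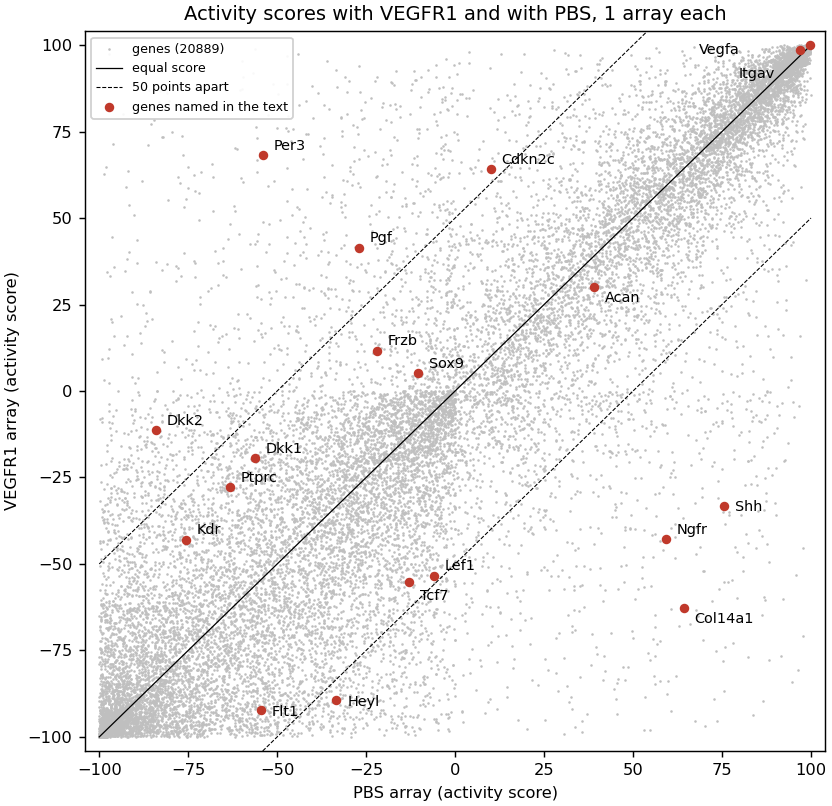
Each grey point is 1 of 20889 genes, with its activity score on the PBS array (x axis) and on the VEGFR1 array (y axis), and red points are genes named in the text. Most genes lie along the line of equal score, Vegfa and Itgav sit in the top right corner, and Shh, Ngfr and Col14a1 lie more than 100 points below the line.

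The only replicates on the score scale were arrays of crushed whole bone (bulk tissue). There, replicate arrays of the same group differed by at least 50 points in 17.2% to 32.0% of genes in uninjured adults (10 pairs), 26.8% to 31.8% in microfractured adults (3 pairs) and 28.8% to 40.3% in newborns (3 pairs). The share between VEGFR1 and PBS was below all 16 of these replicate shares. Bulk tissue varies in its mix of cells, so this spread need not apply to sorted cells, and the replicate spread of treated stem cells was not measured. In bulk tissue, fewer cells of a type and less RNA per cell cannot be told apart.

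**Figure D2:**
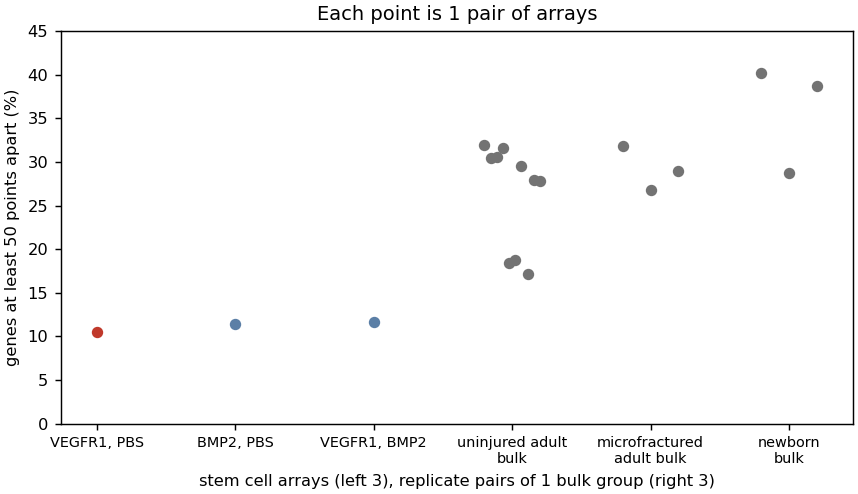
Each point is 1 pair of arrays, and the y axis gives the percent of genes that differed by at least 50 score points between them. The VEGFR1 and PBS pair stands at 10.5%, the other stem cell pairs at 11.4% and 11.6%, and replicate pairs of 1 bulk group between 17.2% and 40.3%.

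The level of a gene limited how far it could move, since genes whose mean score lies beyond 75 or -75 have less than 50 points of room. Of the 13822 genes with a mean score between -75 and 75, 15.8% were called. Called genes also tended to be weak in the replicated arrays of untreated stem cells from microfractured joints, where the deposited unit is MAS5 intensity. The median of their mean intensities there was 108 units (quartiles 47.0 and 243; 1521 genes found), against 285 for genes that differed by less than 25 points (12957 genes). Of the called genes 71.1% lay below the median of all values on those arrays, 206 units, against 42.6% of the genes within 25 points.

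The labelled sort was checked against its genes. Itgav, which encodes the integrin used for positive selection, scored 97.0 with PBS and 98.4 with VEGFR1. Ptprc (CD45) scored -63.4 and -27.8, and its other probe set moved the opposite way, from -66.1 to -89.0. Tek (TIE2) scored -86.1 and -83.8, Thy1 -72.2 and -98.4, Enpep (6C3) -79.4 and -64.7, and Eng (CD105) -51.6 and -78.9. The gene of the positive marker was thus high on both arrays. By the probe sets that stand for them, those of the negative markers read here lay below the median of all probe sets on both arrays. Ptprc with VEGFR1 (-27.8) did so only just, the median there being -23.46. None of these 6 genes was called. TER119 was not checked, as the list held no gene for it. Of 15 stem and stromal genes 10 scored above 0 on each array, with list medians of 47.25 and 27.3. Prrx1, a transcription factor of limb mesenchyme (99.0 and 99.5), and Nt5e, a surface enzyme of mesenchymal cells (100 and 100), were the highest. The hedgehog target gene Gli1 (-67.8 and -77.0) was low. The probe set that stands for the marrow stroma gene Lepr (-15.2 and -10.7) scored below 0 but above the medians of all probe sets (-24.15 and -23.46). Of the 4 Lepr probe sets, 1 differed by -94.1 points.

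Markers of blood and vessel lining cells were mostly low with both treatments. None of the 19 myeloid and none of the 14 endothelial genes scored above 0 on either array, and their summed scores were -1354 and -1337 (myeloid, PBS and VEGFR1) and -1051 and -1087 (endothelial). Their list medians were -84.6 and -82.3 (myeloid) and -80.0 and -81.4 (endothelial), against -24.15 and -23.46 for all probe sets. Lyz2, the lysozyme of macrophages and neutrophils, scored -69.3 and -73.2, and Pecam1, an endothelial junction gene, -98.0 and -98.7. Of 13 erythroid genes 1 was higher and 0 lower, the alpha globin gene Hba-a1 (-48.3 with PBS, 21.3 with VEGFR1, 17.8 with BMP2; 1 probe set). The erythroid factor gene Gata1 scored -98.8 and -99.2, and the list's summed score was -741 with PBS and -608 with VEGFR1. Of 15 lymphocyte, 6 megakaryocyte, 9 pericyte, 7 adipocyte and 8 synovial and tendon genes none was called. Not all of these lists were low. Of the synovial and tendon genes 5 scored above 0 with PBS and 6 with VEGFR1, led by the tendon factor gene Scx (98.6 and 97.8), Prg4 (93.6 and 95.9) and the joint gene Gdf5 (87.1 and 81.9). Of the pericyte genes 4 and 3 scored above 0, with Acta2, a smooth muscle actin gene, at 86.9 and 95.4 and Cspg4, the NG2 proteoglycan gene, at 82.9 and 88.1. Single members of other lists were high on both arrays, among them Ppbp (80.6 and 64.4), Igll1 (79.7 and 77.2), Mb (90.7 and 81.1) and Tfrc (65.0 and 77.1). Among 12 skeletal muscle genes 9 had a lower score with VEGFR1, by a median of -11.6 points over the list, and none was called, though both probe sets of the fast myosin gene Myh4 were lower (-47.3 and -58.3 points).

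Genes of the VEGF family, the target of the treatment, gave 1 call among 10, near the share of 10.5% called over all genes. Pgf, which encodes placental growth factor, another ligand of VEGFR1, scored -27.1 with PBS and 41.4 with VEGFR1, a difference of 68.5 points. It scored 55.4 with BMP2, so the PBS array was the low one of the 3. Pgf has 1 probe set, and in untreated cells of microfractured joints its intensity was only 70.8 ± 39.4 (SD, n = 3), below the median of 206 for all values. The ligand gene Vegfa stood at the upper bound with both treatments (99.8 and 99.9), and its other probe set, with room to move, read 61.2 and 62.7. In untreated cells Vegfa measured 2744 ± 1188 intensity units (SD, n = 3).

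The receptors of VEGF were low in these cells. Kdr scored -75.6 with PBS, -43.0 with VEGFR1 and -95.6 with BMP2. Flt1, the gene of the receptor given as treatment, scored -54.7, -92.4 and -96.6, and its other 3 probe sets lay between -91.3 and -99.7 with PBS and between -92.0 and -98.8 with VEGFR1. Vegfc, which acts on lymphatic vessels, scored 50.3 and 23.6, and its 3 probe sets differed by -26.7, -21.4 and 0.95 points. The co-receptor genes Nrp1 (68.1 and 75.7) and Nrp2 (98.9 and 99.9) were high on both arrays and each of their 8 probe sets differed by less than 10 points. The list median was 0.52 points, beside -0.29 for all genes.

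**Figure D3:**
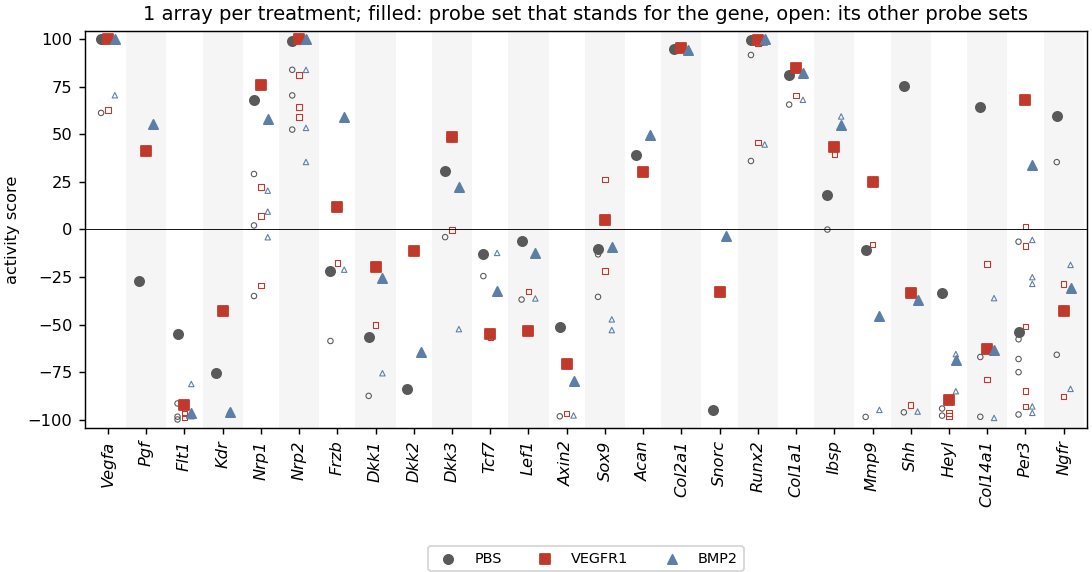
Activity scores (y axis) of 26 genes on the PBS, VEGFR1 and BMP2 arrays, 1 array each, with a filled symbol for the probe set that stands for the gene and open symbols for its other probe sets. Vegfa, Col2a1 and Runx2 sit near the upper bound on all 3 arrays, whereas the scores of Shh, Col14a1 and Ngfr were high with PBS alone.

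Cartilage genes kept close scores. Of 22 cartilage transcription factor and matrix genes 1 was higher, 0 were lower and 18 differed by less than 25 points, with a list median of 0.48 points. Col2a1, the main collagen of cartilage, scored 94.7 with PBS and 95.2 with VEGFR1. Acan, the large proteoglycan that holds water in cartilage, scored 39.2 and 29.9. The regulator genes Sox5 (99.1 and 98.9) and Sox6 (84.3 and 81.3) were high on both arrays, as was Prg4, the joint lubricant gene (93.6 and 95.9). Of the 6 Sox5 probe sets, 1 differed by -52.6 points. These cartilage genes show no common direction, and those near the upper bound could hardly have scored higher.

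Sox9, which starts the cartilage programme, scored -10.4 with PBS, 5.21 with VEGFR1 and -9.43 with BMP2. Its 3 probe sets differed by 15.6, 61.5 and -8.65 points and so gave no single answer. The called gene, Snorc, encodes a cartilage membrane proteoglycan and scored -95.0 with PBS, -32.7 with VEGFR1 and -3.67 with BMP2, a difference of 62.3 points on its only probe set. The PBS array, near the lower bound, was thus the low one of the 3 for Snorc. In untreated cells of microfractured joints, by contrast, Snorc was well measured (1741 ± 596 intensity units, SD, n = 3). Ucma, a secreted protein of growth plate cartilage, scored 18.4 with PBS, 31.6 points more with VEGFR1 and 84.3 with BMP2, and its other probe set differed by 6.36 points. Some minor collagens were lower without reaching the threshold. Col11a2 scored -16.0 and -57.6, Col9a3 66.9 and 44.1, and Col9a2 -23.7 and -50.6.

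Genes of hypertrophic cartilage and bone did not reach the threshold either. Of 10 growth plate genes and 15 osteoblast genes none was called, with list medians of -1.14 and -0.68 points. Col10a1, the collagen of hypertrophic cartilage, scored 85.5 and 83.2, and Panx3, a channel of hypertrophic and bone cells, 100 and 100. Runx2, the first regulator of bone formation, scored 99.3 and 99.5, and Col1a1, the main bone collagen, 80.9 and 84.7. Sp7, the regulator downstream of Runx2, scored -5.15 with PBS, -48.8 with VEGFR1 and -0.12 with BMP2, while Alpl, the mineralization enzyme, scored -7.56, -13.0 and 66.2.

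Ibsp encodes a mineral-binding protein of bone. Its 2 probe sets read 18.3 and -0.07 with PBS, 43.3 and 39.5 with VEGFR1 and 55.0 and 59.3 with BMP2. Both were thus higher with VEGFR1, by 25.1 and 39.6 points, and higher still with BMP2. The PBS array, which the other arrays share as control, was the lowest of the 3.

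Stromal and fibrous matrix genes held 1 call. Of 15 stem and stromal genes 14 differed by less than 25 points, with Cxcl12, the chemokine of the marrow niche, at 20.7 and 27.3 and the BMP antagonist gene Grem1 at -0.46 and -0.06. Of 22 fibrous and wound matrix genes 21 differed by less than 25 points, with Fn1 (fibronectin) at 90.9 and 92.7, Postn (periostin) at 38.7 and 49.6 and Timp1, a protease inhibitor gene, at 83.3 and 83.5. Col14a1, a collagen that binds to fibrils, scored 64.2 with PBS, -62.8 with VEGFR1 and -63.4 with BMP2, a difference of -127 points. Its other 2 probe sets differed by 48.9 and 19.6 points in the opposite direction, and the median of all 3 was 19.6 points, so the call rests on 1 probe set that was high on the PBS array only among the stem cells. On the 3 bulk arrays of microfractured adults that probe set read between 91.7 and 99.3.

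The matrix protease gene Mmp9 was higher on both of its probe sets, which read -10.6 and -98.4 with PBS, 24.9 and -7.96 with VEGFR1 and -45.4 and -94.7 with BMP2. The VEGFR1 array was the high one of the 3. Mmp9 is made by chondrocytes and also by osteoclasts and neutrophils, which the CD45- gate should remove. Of 11 osteoclast genes, which include Mmp9, none was called. Without Mmp9 the summed score of the other 10 was -94.5 with PBS and -95.5 with VEGFR1. These include Tnfsf11 (RANKL, 59.65 and 41.3) and Tnfrsf11b (OPG, 99.9 and 99.9), signals to osteoclasts and not markers of them. The sum is therefore no measure of osteoclasts. That sum covers moves both ways, since 5 of the 11 genes scored higher and 5 lower. Tnfrsf11a and Calcr were 35.3 and 33.8 points higher, while Oscar and Acp5 differed by -36.0 and -23.0 points. The other probe sets of Tnfrsf11a and Oscar differed by -12.3 and 28.9 points. Among myeloid genes the neutrophil granule genes Ctsg, Ltf and Camp were 39.9, 32.9 and 18.9 points higher, all at scores below 0, while Mpo, Elane and Ngp differed by 3.95, -1.01 and -0.41 points. Their part in the Mmp9 difference was not tested. The collagenase genes Mmp13 (32.7 and 54.6) and Mmp3 (28.2 and 51.3) also scored higher, both under the threshold, and of 16 protease and inhibitor genes none was called.

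Wnt signals act on stem cells through the nuclear factors TCF and LEF, and secreted inhibitors such as the DKK and SFRP proteins block the ligands or their co-receptors. Of 21 Wnt genes 1 was higher and 0 were lower. Dkk2, an inhibitor, scored -84.0 with PBS, -11.3 with VEGFR1 and -64.4 with BMP2, a difference of 72.7 points on 1 probe set. In untreated cells it measured 64.8 ± 51.9 intensity units (SD, n = 3), below the median of 206.

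Other inhibitors of the list lay in the same direction under the threshold. Dkk1 differed by 36.7 and 37.1 points on its 2 probe sets, and Frzb by 33.6 and 40.9. Of the 8 secreted inhibitors in the list, 7 scored higher with VEGFR1, and Wif1 differed by -10.3. Their median was 15.2 points, beside -0.29 for all genes. The 8 were set apart after their values were seen, so this count is no check of a shared direction. Some of the 7 moved little or were mixed. Sfrp2 differed by 1.46 points near the lower bound, and Sfrp1 by 7.17 points with probe sets from -7.34 to 35.5. Frzb scored -22.0 with PBS, 11.6 with VEGFR1 and 59.2 with BMP2, so its PBS score was again the lowest.

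The nuclear factors and targets of the list were not called and did not share a direction. Tcf7 scored -12.9 with PBS and -55.1 with VEGFR1, and its other probe set -24.5 and -56.8, so both were lower. Lef1 scored -5.87 and -53.4, but its other probe set -36.8 and -32.5. Axin2, which Wnt signals induce, scored -51.0 and -70.6, and its other probe set differed by 1.34 points, while Ctnnb1 (beta-catenin) scored -16.3 and -10.2. In untreated cells Tcf7 measured 443 ± 67.1 and Axin2 165 ± 3.26 intensity units (SD, n = 3 each).

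Of 21 BMP pathway genes none was called, and the list median was -1.72 points. Bmp2 scored 36.2 with PBS and 44.8 with VEGFR1, against 76.8 on the BMP2 array. Id1, a direct BMP target, scored 26.9, 25.3 and 38.4, and the antagonist gene Nog -40.4, -8.64 and 62.9. None of 15 TGF-beta genes and none of 16 FGF and PDGF genes was called, though 1 other probe set each of Tgfbr2 (-52.5 points) and Smad2 (61.4 points) went past 50 points. In the IGF axis (13 genes, none called) the binding protein gene Igfbp3 was lower on both probe sets, by -41.5 and -44.5 points, and Igfbp2 scored -48.4 and -93.0.

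Hedgehog and Notch lists held 1 called gene each. Shh, a hedgehog ligand, scored 75.5 with PBS, -33.2 with VEGFR1 and -36.8 with BMP2, a difference of -109 points. Its other probe set read -96.0 and -92.1, and in untreated cells Shh measured 48.0 ± 2.70 intensity units (SD, n = 3), below the median of 206. The probe set that was high with PBS read between 38.8 and 91.2 on the 3 bulk arrays of microfractured adults. The hedgehog receptor gene Ptch1 scored 50.8 and 59.1 and the signal transducer gene Smo 96.4 and 95.8. The 3 probe sets of Ptch1 differed by -41.8 to 30.6 points. The other probe sets of Smo differed by 5.35 and 89.0 points. Heyl, a Notch target, scored -33.4 and -89.4 on 1 probe set, and the other 2 probe sets differed by -0.26 and -2.32 points.

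Cell cycle, metabolic and housekeeping lists held still closer scores by the probe sets that stand for each gene. By these, all 25 cell cycle genes differed by less than 25 points, between -17.0 and 7.13, with the proliferation marker gene Mki67 at 41.8 and 46.0 and the division kinase Cdk1 at 64.2 and 66.6. Lower-scoring probe sets of 3 of these genes went past 50 points, with 2 of 4 for Tyms, an enzyme of DNA precursor synthesis (73.6 and 61.2 points), 1 of 3 for Top2a (65.5 points) and 1 of 2 for Aurka (-51.6 points). All 13 glycolysis, 14 oxidative phosphorylation, 16 secretory pathway and 15 ribosomal genes also stayed within 25 points by the probe sets that stand for them. Here too some lower-scoring probe sets went further, among them 1 each of Sdha (63.7 points), Cycs (-43.7 points), Atf6 (-47.2 points) and Pdia3 (-35.6 points). The list medians were 0.24 for the cell cycle, 0.99 for glycolysis, -5.77 for oxidative phosphorylation, 0.05 for the secretory pathway and -2.91 for ribosomal genes. The lactate enzyme gene Ldha, of the glycolysis list, scored 92.1 and 93.5. Of 14 hypoxia genes none was called, and 11 differed by less than 25 points. Hif1a, the transcription factor of the low-oxygen response, stood near the upper bound at 98.7 and 98.9. Ndrg1 was 31.8 points higher, while Ankrd37 and Egln3 differed by -26.3 and -25.1 points. The 5 probe sets of Ndrg1 differed by 0.53 to 31.8 points, and the other probe set of Egln3 by 17.0 points. Among 12 cell cycle inhibitor and p53 genes Cdkn2c, the inhibitor p18, scored 9.96 with PBS, 64.2 with VEGFR1 and 90.9 with BMP2, while its other probe set differed by -18.8 points.

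Immune signals gave no call. Of 17 inflammatory and 15 interferon response genes none reached the threshold, with list medians of -0.72 and -1.87 points. The neutrophil attractant gene Cxcl1 scored -0.97 with PBS and 24.3 with VEGFR1, and the interferon-induced chemokine gene Cxcl10 -61.3 and -24.9.

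The 37 lists together measured 499 genes, of which 5 were higher (1.00%) and 4 lower (0.802%), against 5.25% and 5.23% over all genes. Many list genes lay near a bound, where a call is not possible. Of the 298 list genes with a mean score between -75 and 75, 3.02% were called, against 15.8% of all genes in that range, and the median absolute difference was 10.3 points against 17.6. The list genes were also stronger in untreated cells, with a median of mean intensities of 749 units.

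**Figure D4:**
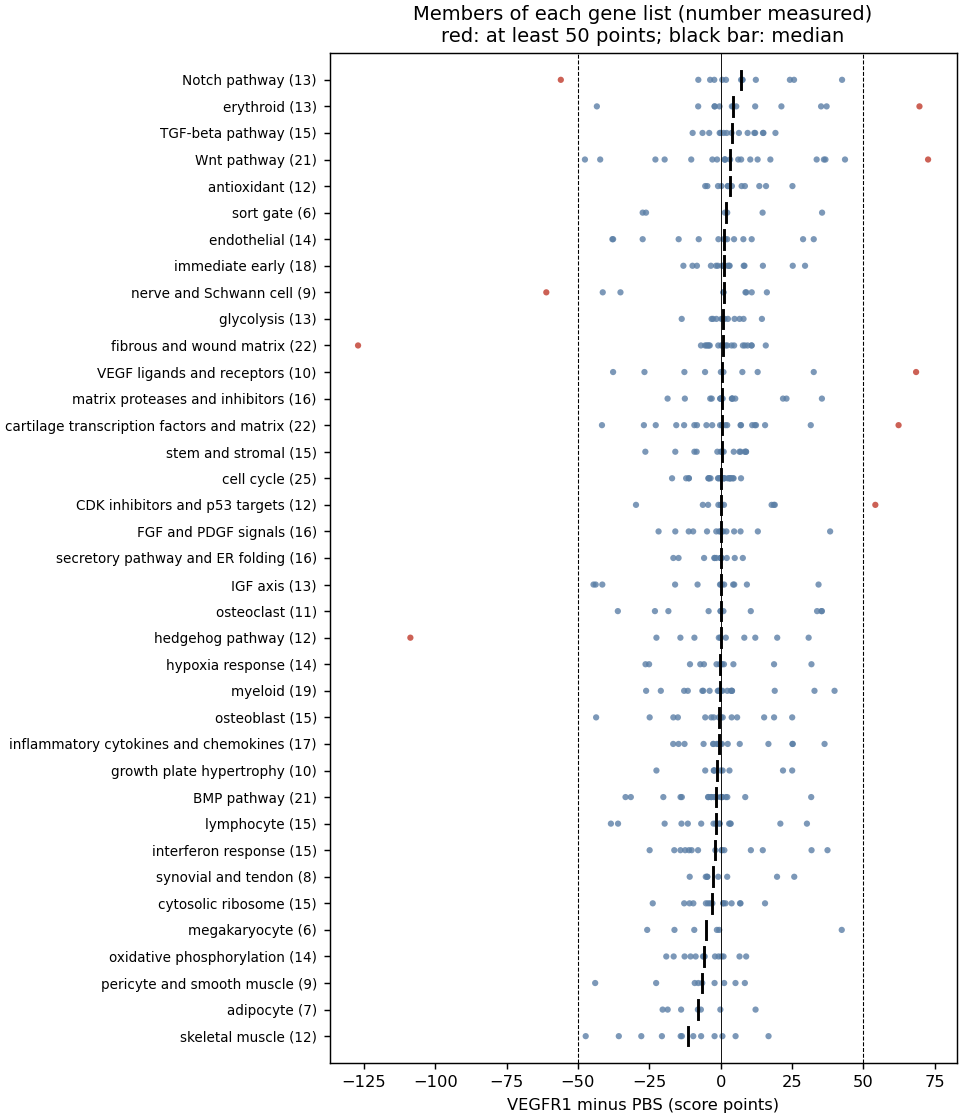
Each point is 1 gene, each row 1 gene list with the number measured in brackets, and the x axis is VEGFR1 minus PBS in score points. Medians (black bars) lie between -11.6 for skeletal muscle and 7.15 for Notch, and 9 genes (red) lie beyond 50 points.

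Agreement between probe sets of the same gene was the available check on single differences. Probe sets share the RNA of the arrays, so agreement checks the probes and not the animals. Among 9744 genes with at least 2 probe sets, 513 were higher by the probe set that stands for them. The probe set with the next highest score moved in the same direction in 53.2% of these, against 48.8% of all 9744 genes, and by at least 25 points in 21.2% against 13.5%. It moved at least 25 points the other way in 14.8%. For the 488 lower genes the same direction was seen in 52.5% against 51.0%, and at least 25 points in 17.4% against 12.6%, with 16.2% the other way.

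The other probe set of such genes was often low, with median scores of -55.2 and -59.4. Where it scored above 0 on average, 39 of 67 higher genes (58.2%) and 16 of 40 lower genes agreed in direction, against 51.3% and 48.3% of all 3497 genes with such a probe set. A difference of at least 50 points the same way on the next probe set was seen in 8.97% of the higher and 6.56% of the lower genes.

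**Figure D5:**
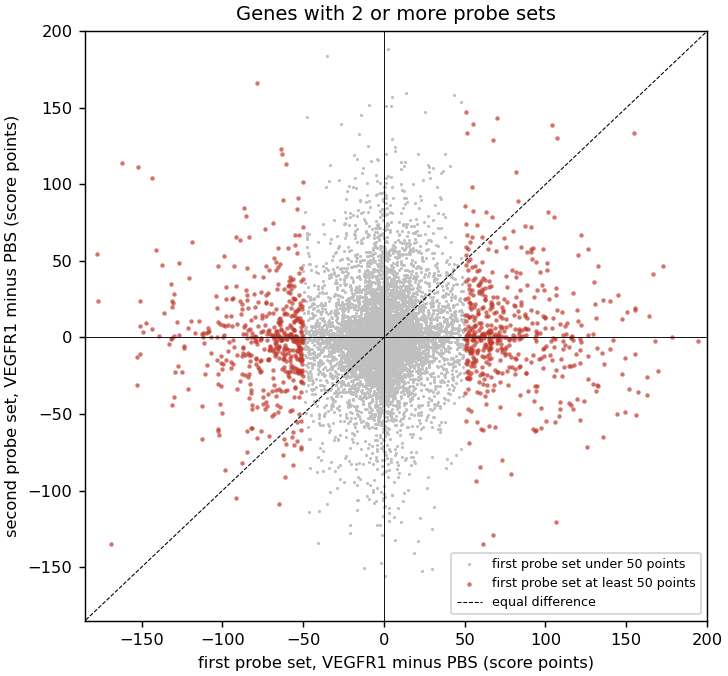
Each point is 1 of 9744 genes, with the difference of the probe set that stands for it on the x axis and that of its next highest probe set on the y axis, in score points. Red points, with at least 50 points on the x axis, spread to both sides of 0 on the y axis, and few lie near the line of equal difference.

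A gene was called backed when at least 2 of its probe sets differed by 50 points in one direction and none in the other. This held for 98 genes higher (1.01% of 9744) and 60 lower (0.616%). The probe set that stands for the gene need not be among those counted, so some backed genes were not called. In some it moved the other way, as in Itpr2 (backed higher, -33.7 points) and Diras1 (backed lower, 33.7 points). Replicate pairs of bulk arrays gave 315 to 1683 backed genes in both directions together, VEGFR1 against PBS 158, and BMP2 against PBS 189. A backed difference of this size was thus also common between replicates on this scale. The named backed genes below were chosen by the size of their difference.

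Among the backed genes with higher scores, Edrf1, which encodes a regulator of erythroid genes, was higher on all of its 3 probe sets, by 88.3, 134 and 55.6 points. It scored -0.83 with PBS, 87.45 with VEGFR1 and 87.1 with BMP2, so the shared PBS array was the low one. Mfsd8, a lysosomal membrane transporter gene, scored -45.7 with PBS, 58.5 with VEGFR1 and 66.4 with BMP2, and its other probe set differed by 139 points. Kank3, of a family that regulates the actin skeleton, was higher on 3 of 3 probe sets (81.6, 108 and 56.7 points). It scored -65.6 with PBS, 16.0 with VEGFR1 and 17.3 with BMP2, so PBS was again the low one. Ryr3, a calcium release channel gene, scored -34.7, 56.1 and -24.9 and was backed by 2 of 3 probe sets. In untreated cells Mfsd8 measured 546 ± 182, Edrf1 251 ± 21.3 and Kank3 88.8 ± 36.6 intensity units (SD, n = 3 each).

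Per3, a component of the circadian clock, scored -54.0 with PBS, 68.1 with VEGFR1 and 34.0 with BMP2, a difference of 122 points. A further probe set differed by 66.2 points, and the other 4 between -16.8 and 7.95. Cpb2, a carboxypeptidase gene that slows clot lysis, scored -65.1, 33.6 and 66.9 and was backed by 2 of 3 probe sets. Pdzd4 scored -68.1, 52.2 and -56.8. The other genes among the 12 largest were 4930507D05Rik (155 points), Mm2pr (122 points), B230217O12Rik (101 points), 5430425E15Rik (87.1 points) and 4930520O04Rik (85.0 points), for which no role is given here.

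On the lower side, Gper1, a membrane receptor for estrogen, was lower on both of its probe sets (-98.4 and -86.3 points). Its representative scored 34.8 with PBS, -63.6 with VEGFR1 and -26.4 with BMP2. Nphp4, a gene of the primary cilium, was lower on both probe sets (-84.6 and -74.7 points) and scored 94.3, 9.69 and -76.2. Ngfr, the p75 neurotrophin receptor gene and a marker of some mesenchymal stem cells, scored 59.3, -42.9 and -30.8, and its 3 probe sets differed by -102, -64.0 and -22.0 points. In untreated cells Ngfr measured 67.0 ± 36.2 intensity units, Nphp4 194 ± 91.2 and Gper1 213 ± 48.6 (SD, n = 3 each).

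Slc1a2, a glutamate transporter gene, scored 55.6 with PBS, -71.6 with VEGFR1 and -53.9 with BMP2, and 2 of 6 probe sets backed it. Ddo, an enzyme of D-amino acid breakdown, scored 95.2, -7.52 and -70.7 (2 of 4 probe sets). Ptdss2, which makes phosphatidylserine, scored 91.1, -7.07 and -14.3 (2 of 9 probe sets). Hspa12a scored 66.2, -21.5 and -26.1 and the axon guidance gene Sema6d -10.8, -94.2 and -79.1. For these 5 genes the BMP2 score lay nearer to VEGFR1 than to PBS, so the shared PBS array was the high one, and each had at least 1 probe set with a difference above 0. Hspa12a turned to 6.39 points by the median of its probe sets, and Sema6d to 15.6 points by the probe set with the highest mean over all arrays. The remaining genes of the 12 were Lrriq3 (-124 points, with another probe set at 41.0), 4930513N10Rik (-103 points), 2900052N01Rik (-84.7 points) and Ppp4r1l-ps (-83.3 points, with another probe set at 31.4). Of the 24 genes named by this rule, 14 lay below the median intensity of 206 units in untreated cells, with means between 22.3 and 546.

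A wider set, chosen after the data were seen, held genes whose probe sets all lay on one side. All of at least 2 probe sets differed by at least 25 points in 131 genes with higher and 148 with lower scores (1.34% and 1.52% of 9744), against 409 to 1485 in both directions together between replicate bulk arrays. Among list genes the set held Ibsp, Frzb, Dkk1 and Mmp9 on the higher side and Tcf7, Igfbp3, Myh4 and Pax7 on the lower. Outside the lists it held Pthlh, the gene of the signal PTHrP that holds growth plate chondrocytes back from hypertrophy, which scored -63.3 with PBS, -10.6 with VEGFR1 and -43.6 with BMP2, with 52.7 and 31.6 points on its probe sets. Ihh, its partner in the growth plate loop, scored -75.6 and -98.1.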

How the data were processed

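Mouse stem cells were sorted into TRIzol LS and their RNA was amplified in 2 rounds before labelling, per the labels' protocols. For this experiment the authors deposited an activity score per probe set, bounded at -100 and 100, for 14 arrays (3 of stem cells, 11 of bulk tissue). How the score was computed is not given in the sources used here. For untreated stem cells they deposited a linear intensity for each of 18052 genes, from MAS5 per the submitters' processing notes. The tables have different units and were not combined.

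Of 45101 probe sets, 38557 carried 1 symbol and were used, 860 carried several and 5684 none. Symbols were updated through a reference gene table (GRCm38.p6), which held 18346 of the 20889 genes. Score differences were taken as deposited, with no scaling, filter or test, in Python 3.11.15 with pandas 2.3.3, and the steps were tested on simulated data. No arrays were left out.

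The gene lists, the threshold of 50 points and the comparison itself were chosen with earlier results of these data known. Named were the 12 largest backed differences each way among genes with official symbols, up to 4 called members of each list, and the sort genes with Bmp2, Vegfa, Flt1, Kdr, Sox9, Acan, Col2a1, Col1a1 and Runx2. One called list member is not reported here. List members under the threshold were named after their values were seen. Alternatives changed the probe set rule, scaling, filter and threshold. The number of arrays limits the precision.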

Additional observations from a re-analysis of the deposited data

How the results depend on the processing

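Each treatment had 1 array, so no difference has a replicate check, and leaving out an array was not possible. No paired analysis was possible because each treatment has 1 array and the result comes from no test. The alternatives tried were another probe set rule, median subtraction, quantile normalization, a filter, the loss of shared probe sets and other thresholds. With 40 points, 1664 genes were lower, 166 were backed higher and 124 lower, and 8 list genes were higher and 15 lower. With 75 points, 430 genes were higher and 431 lower, 20 were backed higher and 9 lower, and 0 list genes were higher and 2 lower. Keeping only genes with a score above 0 on at least 1 array left 681 higher and 611 lower genes, and 3 and 2 of the list genes, since fewer genes were tested. The erythroid median became 40.9 points, but only 2 genes of that list were left, Tfrc (12.1 points) and Hba-a1 (69.7 points). Hba-a1 scored below 0 with PBS and passed the filter through its VEGFR1 score. That median therefore does not bear on an erythroid difference. The median over all probe sets of a gene gave 2 lower list genes and a skeletal muscle median of -3.69 points, and turned Hspa12a to 6.39 and Col14a1 to 19.6 points. The probe set with the highest mean over all 14 arrays gave 10 higher list genes and turned Sema6d to 15.6 points. Without shared probe sets 9 list genes were higher. The causes of these shifts of single genes were not tested. Requiring every probe set of a gene to differ by at least 25 points, an alternative chosen after seeing the data, gave 148 lower genes in place of 60. Median subtraction and quantile normalization moved no count by over 1.5 times.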

Other observations

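Other clock genes were looked up after Per3 was seen. Per1 scored -99.9 and -98.9, Per2 -88.6 and -92.7, Nr1d1 40.5 and 40.3, Nr1d2 98.2 and 95.3 and Dbp -78.4 and -73.2 with PBS and VEGFR1. Rora differed by 60.2 points on 1 of 8 probe sets, and Tef by -46.8 and Cry2 by 44.5 points.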
